A study of Mus musculus with 15 samples.

Results

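The genes described here are 35 factors of blood coagulation and fibrinolysis, taken by symbol from a table of exon read counts for 38087 gene rows. All 35 symbols had a row, though the rows of Vkorc1 and Klkb1 are models that join neighbouring genes (readthrough models). They comprise clotting proteases and their cofactors, the enzymes of the vitamin K cycle, the contact system, the subunits of factor XIII, inhibitors of clotting, and the plasminogen system. The fibrinogen chains are not among the 35. The measurements come from cultured mouse hepatocytes, 5 groups in all. Every group was made from cryopreserved CD-1 hepatocytes. Wells coated with collagen received 200000 cells, which attached for 6 h, were overlaid with a basement membrane matrix, and from the next day spent 24 h in medium with dexamethasone, insulin and 25% mouse serum. Male cells in serum of conventionally raised male mice (m_pHep_m_ConvR, n = 3) and female cells in the same serum (f_pHep_m_ConvR, n = 3) differed in the donor. The other female cells received serum of conventionally raised females (f_pHep_f_ConvR, n = 2), serum of germ-free females, which carry no microbiota (f_pHep_f_GF, n = 2), or that germ-free serum followed by growth hormone at 8 ng per ml for 2 h (f_pHep_f_GF_GH, n = 3). All other groups had vehicle for those 2 h. The sources used here give neither the age of the mice nor the strain of the serum donors. Each sex is represented by its own commercial donor stock, so that sex and donor cannot be told apart. Nothing says that replicates came from separate animals or serum pools. The sex or microbiota of the serum donors thus cannot be told apart from the serum lot. The p-values therefore measure the spread between these libraries, which may be technical.

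Blood clots when tissue factor meets factor VII, and a chain of proteases ends in thrombin, which turns fibrinogen into fibrin. Hepatocytes make most of the soluble clotting factors and their inhibitors, and several of the proteases work only after a vitamin K-dependent carboxylation in the cell. Fibrin is removed by plasmin, which plasminogen activators release from plasminogen. Factor VIII, von Willebrand factor and thrombomodulin are known mainly as products of endothelial cells, and the factor XIII A subunit as one of macrophages and megakaryocytes.

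The libraries held 34097400 to 48742274 counts. The hepatocyte markers Alb, Ttr, Apob, Apoa2, Serpina1a, Cps1, Tat and Trf summed to 18650 to 37460 CPM (counts scaled to a common library size), and 8 of 8 were detected in every group, as the label hepatocyte implies. Markers of sinusoidal endothelium summed to 20.0 to 67.0 CPM. Kdm5d, which is Y-linked, had 1302 to 1506 counts in the male libraries and 0 in the female ones. Xist, expressed from the inactive X chromosome, was highest in replicate 2 of conventional female serum and replicate 1 of growth hormone, so results on these groups are also given without that pair. The table held 15 columns of values. A pair of columns under the same name could not be assigned and was not used, which left 13 libraries and only replicates 2 and 3 of the conventional female and germ-free groups.

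The rows of 2 members need care. The identifier that the table calls Vkorc1 is a readthrough model (Gm21974) in GENCODE release M21, and its 3404 counts nearly equal the 3542 counts of the row now named Vkorc1. The identifier that the table calls Klkb1 is likewise a readthrough model (Gm45753), which shares 313 exonic bases with Cyp4v3 on the same strand. Cyp4v3 had 81636 counts against 2125 for this row, and the gene now named Klkb1 had no row of its own. Reads of Cyp4v3 and Klkb1 in this row cannot be told apart. Serpinc1 shares 2942 exonic bases with Zbtb37 on the other strand, a gene with 5326 counts against 48417 for Serpinc1. Since the strand setting of the counting is not given, reads of such neighbours cannot be told apart.

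Levels per exon length spanned about 4 orders of magnitude among the 33 members whose row is not a readthrough model. In female cells with conventional male serum, prothrombin (F2) was highest at 82.4 CPM per kb of exon (79.7 to 84.6 over 3 libraries). Carboxypeptidase B2 (Cpb2), which protects fibrin from lysis, followed at 70.7, then Kng1 at 51.6 and F11 at 44.6. These first 4 did not overlap with one another, whereas F11 overlapped with Serpinf2 (41.1 CPM per kb), which overlapped with Proc. At the other end stood F8, factor VIII, at 0.128 CPM per kb and Vwf, von Willebrand factor, at 0.0100 CPM per kb. In male cells Cpb2 (175 CPM per kb) and F2 (169 CPM per kb) led, followed by Kng1. Vwf had 36 counts over all 13 libraries, 0 to 7 in each, and was the only member that did not pass the filter on low counts, which left 34 of 35 for testing.

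**Figure D1:**
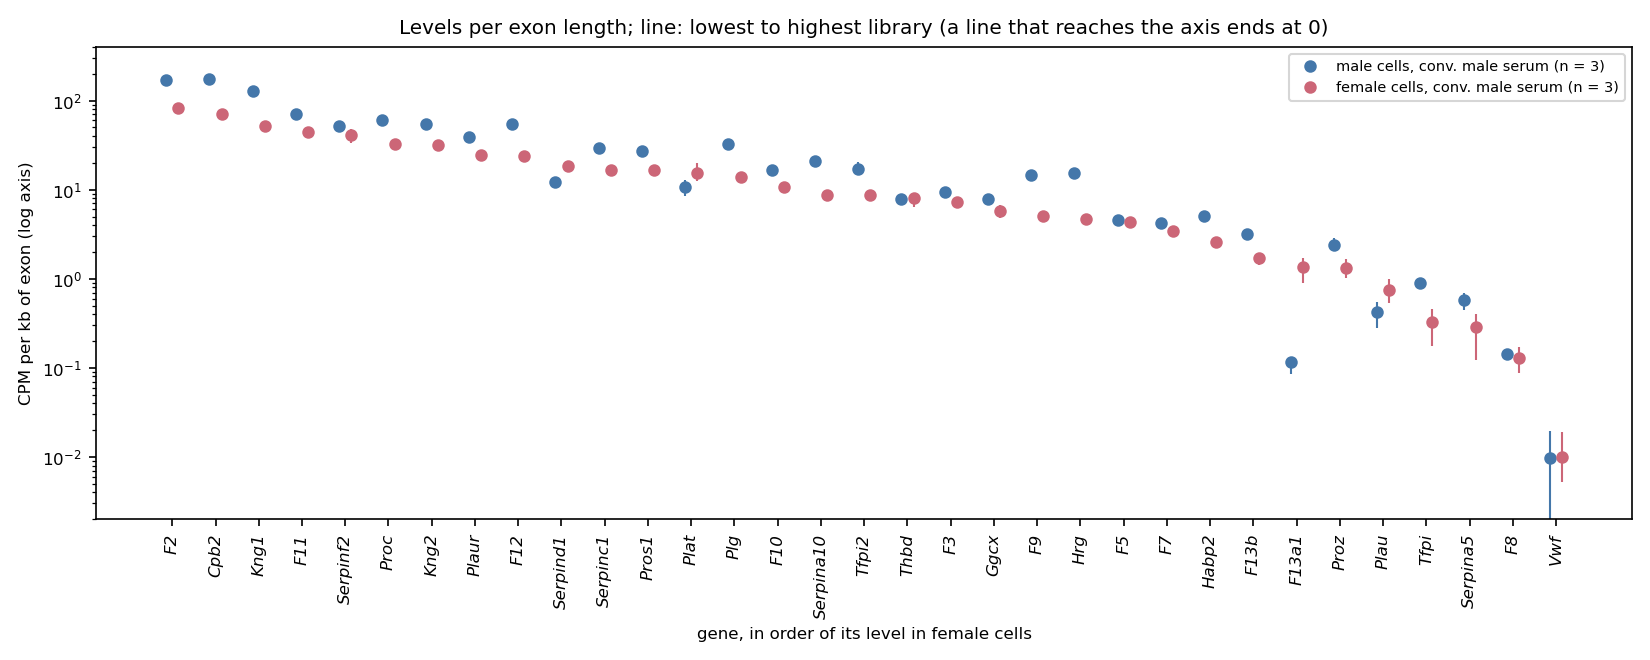
Mean level in CPM per kb of exon (log axis) of 33 members in male and female cells with the same conventional male serum, in the order of the female levels, with lines from the lowest to the highest of 3 libraries. F2 is highest in female cells at 82.4 CPM per kb and Vwf lowest at 0.0100, and F13a1 is the member for which male cells lie farthest below female cells.

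The largest contrast among the members was that between male and female cells in the same conventional male serum. It asks how the donor sets the level of each gene when the serum is the same. Of 34 members tested, 25 were higher and 4 lower in male cells (edgeR quasi-likelihood test, adjusted p under 0.05), and 5 did not pass. The libraries of the groups did not overlap for 29 members, against 47.6% of all genes. Of all 17405 genes tested, 36.7% passed, 17.6% as higher and 19.0% as lower. The members had a median log2 difference of 0.80 and all genes one of -0.02. With scaling by library size only, the calls over all genes shifted from 3065 higher and 3314 lower to 2349 and 4643, with a median of -0.11, and members stood at 23 higher and 4 lower. The 8 hepatocyte markers summed to 36620 to 37460 CPM in male and 19540 to 21550 CPM in female cells, most of it Alb and Trf. Of these markers 7 passed as higher in male cells, while Apob had means of 5065 CPM in male and 5334 CPM in female cells. Their part in these differences was not tested. In bulk RNA, fewer hepatocytes and less RNA per hepatocyte cannot be told apart.

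The vitamin K-dependent proteins rose in 6 of 7 members. F2 stood at 333, 338 and 339 CPM in the 3 male and 159, 168 and 165 CPM in the 3 female libraries, 2.05-fold higher (log2 1.04 ± 0.06 SE, adjusted p = 2.82e-09). F9, factor IX, which joins factor VIII in activating factor X, stood at 39.0, 38.5 and 42.7 CPM against 13.5, 13.1 and 15.5 CPM (1.51 ± 0.12, adjusted p = 6.61e-08). Proc, protein C, the protease that shuts down factors V and VIII, had 105, 96.4 and 97.0 CPM against 49.8, 56.6 and 54.9 CPM (0.89 ± 0.08, adjusted p = 4.88e-07). The male libraries lay above every female library for all 3 genes. F10, the protease that makes thrombin, had 44.2 to 45.1 CPM against 27.0 to 29.9 CPM. Pros1, protein S, the cofactor of protein C, had 88.2 to 90.8 CPM against 47.5 to 58.7 CPM. Proz, protein Z, which guides an inhibitor to factor Xa, had 7.39 to 10.3 CPM against 3.64 to 6.01 CPM. F7, the partner of tissue factor, was the exception in the test: it had 7.23 to 8.45 CPM against 5.70 to 7.09 CPM, and its log2 difference of 0.29 ± 0.14 did not pass (adjusted p = 0.112).

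Of the 35 members, 27 matched a promoter in the RefSeq table (build GRCm38.p6), and the 250 bases before each start site were searched on both strands. The motif TTCNNNGAA, which STAT factors bind, was found in F9 and Pros1 among the 27, and in 7.02% of all 32851 promoters. These 2 windows are shown because both genes are vitamin K-dependent and higher in male cells, with the motif in capitals, at bases -82 to -74 for F9 and -92 to -84 for Pros1. The F9 window is chrX:59999214-59999463 and the Pros1 window chr16:62854057-62854306, both on the plus strand.
F9: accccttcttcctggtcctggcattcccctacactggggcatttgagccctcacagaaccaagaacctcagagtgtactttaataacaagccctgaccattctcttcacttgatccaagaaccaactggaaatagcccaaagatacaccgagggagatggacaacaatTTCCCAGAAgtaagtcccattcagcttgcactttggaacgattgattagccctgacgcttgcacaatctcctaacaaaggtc
Pros1: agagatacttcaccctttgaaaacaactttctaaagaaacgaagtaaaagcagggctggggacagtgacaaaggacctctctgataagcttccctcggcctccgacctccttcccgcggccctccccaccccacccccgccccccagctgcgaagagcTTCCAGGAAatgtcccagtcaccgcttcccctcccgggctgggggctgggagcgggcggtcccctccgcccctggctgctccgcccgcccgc
A match is a description of the letters and not a site in use. The other motifs searched were TGACTCA (AP-1, in F3 and Plaur, 4.46% of all promoters), TTGCGCAA (C/EBP, in Serpina5, 0.164%), TATAAA (in Klkb1 and Tfpi, 12.4%) and the HNF1 motif (in 0 members, 0.00913%).

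The enzymes that keep vitamin K in use rose in male cells, with smaller differences. Ggcx, the carboxylase, had 22.5, 24.3 and 22.5 CPM against 13.9, 19.7 and 17.1 CPM, a log2 difference of 0.45. Its call was lost with library size only and without male replicate 2 or 3 or female replicate 1 or 3 (adjusted p up to 0.125). Vkorc1, the epoxide reductase that warfarin blocks, had 7.47 to 9.08 CPM against 5.17 to 6.19 CPM in its readthrough row.

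All 5 genes of the contact system, which starts clotting on foreign surfaces and releases bradykinin, were higher in male cells. F12, the protease that starts it, stood at 107, 106 and 110 CPM against 45.5, 48.9 and 46.0 CPM (1.20 ± 0.06, adjusted p = 5.95e-10). Kng1, kininogen, the source of bradykinin, stood at 407, 387 and 409 CPM against 149, 169 and 164 CPM (1.32 ± 0.07, adjusted p = 6.15e-10). The male values were thus about 2.30 and 2.50 times the female ones, with no overlap. The second mouse kininogen, Kng2, had 130 to 139 CPM against 73.3 to 84.9 CPM. As the kininogen genes are close copies of each other, reads may be split between them. F11, which activates factor IX, had 156 to 165 CPM against 97.8 to 102 CPM. Klkb1, prekallikrein, had 5.45 to 6.43 CPM against 2.92 to 3.97 CPM in its readthrough row, which may hold reads of Cyp4v3.

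The initiator and the cofactors differed less. Tissue factor (F3) was higher in male cells, at 17.4, 16.9 and 18.8 CPM against 13.5, 14.4 and 13.3 CPM (log2 0.36). F5, factor V, a cofactor that hepatocytes make, had 33.4 to 35.5 CPM against 29.1 to 34.1 CPM. F8 had 1.30 to 1.51 CPM against 0.857 to 1.70 CPM, and Thbd, thrombomodulin, which turns thrombin into an activator of protein C, 27.4 to 32.3 CPM against 23.5 to 34.6 CPM. These last 3 genes overlapped between the groups and did not pass. Of the sinusoidal endothelial markers 8 of 10 were higher in male cells, with sums of 63.6 to 67.0 against 25.1 to 29.0 CPM. The part of endothelial cells in these levels was not tested.

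Factor XIII cross-links fibrin, and its subunits differed in opposite directions. F13a1, the catalytic A subunit, stood at 0.338, 0.522 and 0.519 CPM in male and 3.62, 6.78 and 5.84 CPM in female cells. That is 11.6-fold lower in male cells (-3.54 ± 0.36, adjusted p = 1.27e-06, a gene singled out after its values were seen). The counts behind it were 11, 19 and 18 against 135, 244 and 231. Of 10 macrophage markers tested 1, Cd68, was higher in male cells and none lower. The list summed to 153 to 173 CPM in male and 85.5 to 104 CPM in female cells, most of it Cd68. Without a call, 8 of the 10 had a negative difference, as F13a1 did (list median -0.27). Among them were Vsig4 with means of 0.581 and 1.02 CPM and C1qa with 1.53 and 2.45 CPM. Clec4f, with means of 3.17 and 3.26 CPM, and Lyz2, with 1.48 and 1.54 CPM, hardly differed. The platelet markers summed to 3.69 to 4.98 CPM and 5.09 to 6.70 CPM, with Gp9 at 0 in male cells. The part of such cells in the F13a1 difference was not tested. F13b, the carrier subunit from hepatocytes, was higher in male cells, with 7.28 to 7.74 CPM against 3.43 to 4.56 CPM.

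Of the 6 inhibitors of clotting, 5 rose and Serpind1 fell. Serpina10, the protein Z-dependent inhibitor of factor Xa, had 77.8, 71.2 and 73.4 CPM in male and 27.0, 34.5 and 30.3 CPM in female cells. Serpinc1, antithrombin, had 143 to 155 CPM against 75.8 to 90.8 CPM. Serpind1, heparin cofactor II, went the other way, with 25.7, 24.7 and 29.1 CPM in male against 39.9, 40.5 and 41.6 CPM in female cells (log2 -0.62). Tfpi, the tissue factor pathway inhibitor, had 4.62 to 4.87 CPM against 0.937 to 2.42 CPM, and its relative Tfpi2 23.1 to 31.5 CPM against 11.5 to 14.7 CPM. Serpina5, the protein C inhibitor, was near the lower limit, with 31 to 52 counts against 10 to 34. It lost its call under 7 of 13 alternatives, among them the fits without male replicate 2 or 3 or female replicate 1 or 2 (adjusted p up to 0.165).

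In the plasminogen system 5 of 8 members rose in male cells, namely Hrg, Cpb2, Plg, Habp2 and Plaur, and the activators Plat and Plau fell. Hrg, histidine-rich glycoprotein, which binds plasminogen and heparin, showed the largest rise of any member, from 9.48, 8.90 and 9.71 CPM in female to 30.9, 31.5 and 30.4 CPM in male cells (1.72 ± 0.10, adjusted p = 1.65e-09). Cpb2 had 257, 256 and 264 CPM against 99.4, 111 and 103 CPM (1.31 ± 0.06, adjusted p = 1.12e-10). Plg, plasminogen, had 88.2, 85.9 and 92.1 CPM against 38.9, 39.4 and 37.9 CPM (1.20 ± 0.09, adjusted p = 4.61e-08). None of these groups overlapped. Habp2, a protease that can activate factor VII and urokinase, had 13.2 to 16.5 CPM against 7.03 to 8.54 CPM. Plaur, the urokinase receptor, had 57.1 to 59.7 CPM against 34.3 to 39.2 CPM. Plat, tissue plasminogen activator, was lower in male cells, at 32.1, 28.4 and 21.4 CPM against 31.8, 50.1 and 35.3 CPM (log2 -0.52), and Plau, urokinase, likewise, at 1.29, 0.989 and 0.663 CPM against 1.66, 1.25 and 2.35 CPM (log2 -0.85). For both genes the groups overlapped. Plat lost its call with DESeq2 and without male replicate 2 or 3 or female replicate 2, and Plau in the fit of only these groups and without male replicate 2 or 3 or female replicate 3. Serpinf2, the plasmin inhibitor, had 111 to 120 CPM against 75.0 to 107 CPM and did not pass (log2 0.35, adjusted p = 0.0527). It passed under 6 of 13 alternatives.

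**Figure D2:**
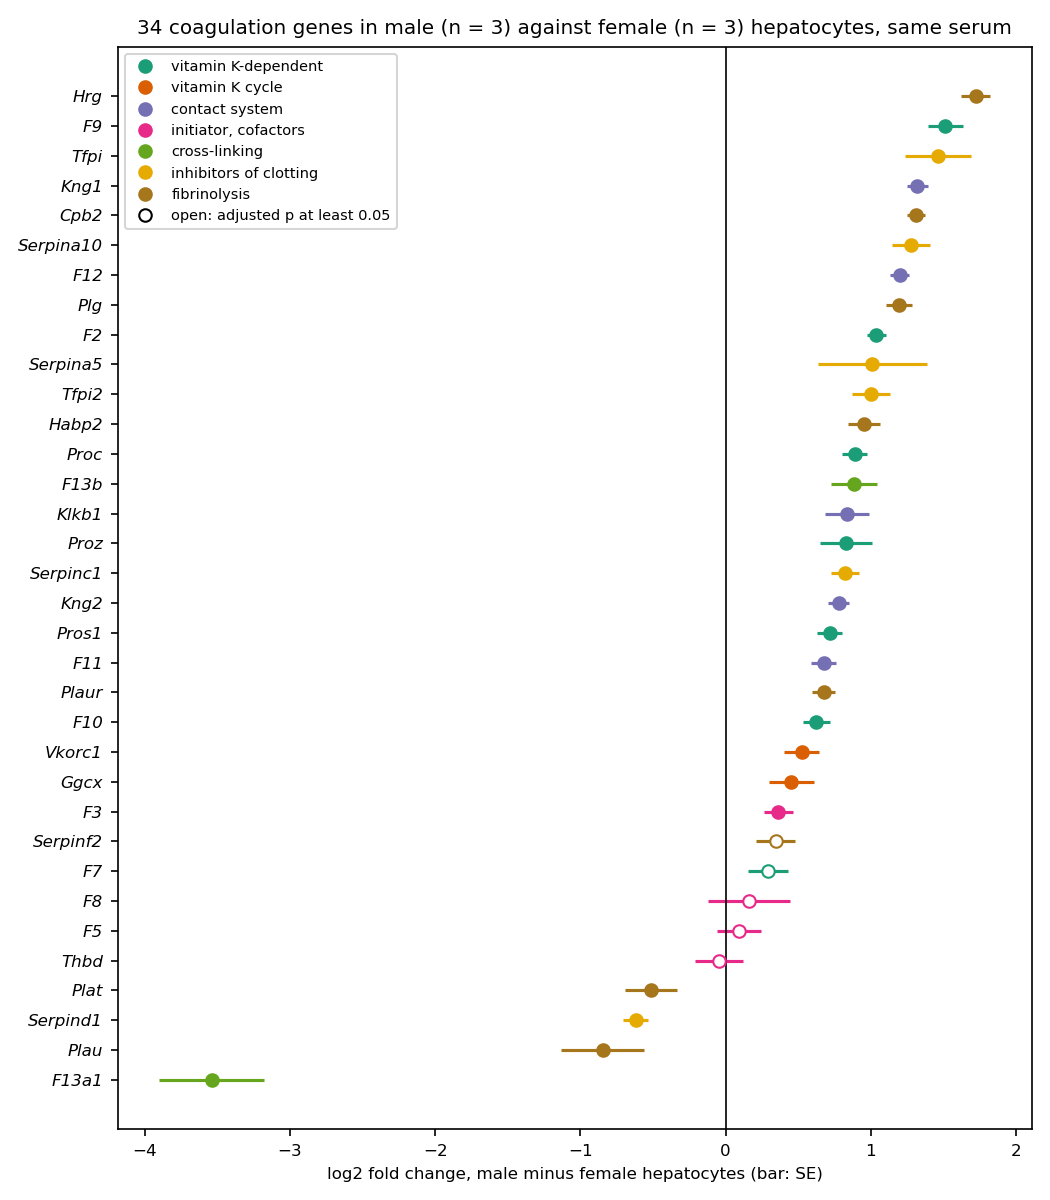
Log2 difference, male minus female cells in the same serum (n = 3 each), for the 34 members tested, coloured by role, with SE bars and open symbols for members that did not pass. Most points lie right of 0, up to 1.72 for Hrg, while F13a1 stands alone at -3.54 and Plau, Serpind1 and Plat also lie left of 0.

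Female cells in conventional male serum (n = 3) were compared with those in conventional female serum (n = 2). These sera differed in the sex of the donor, which cannot be told apart from the serum lot. Here 2 members rose and 6 fell of 34, against 8.8% called over all genes, 3.95% as higher and 4.85% as lower. Without both libraries richest in Xist the members' calls were 4 as higher and 2 as lower. Libraries did not overlap for 11 members, against 34.9% of all genes. The median log2 difference was -0.07 for the members and 0.0015 for all genes. The members' median changed sign between fits, at 0.016 without male serum replicate 1, -0.0027 without female serum replicate 2 and -0.17 without female serum replicate 3, and it was -0.12 without male serum replicate 2. The members that moved lay in the plasminogen system, the contact system, the factor XIII A subunit and 1 inhibitor. No vitamin K-dependent protein of 7 and no enzyme of the vitamin K cycle passed.

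Plat fell most. It stood at 31.8, 50.1 and 35.3 CPM in male serum and at 119 and 75.0 CPM in female serum (-1.31 ± 0.19, adjusted p = 0.000463). Every male serum library lay below both female serum libraries, which themselves were far apart. Without female serum replicate 2, the higher of the pair, the difference was -0.95 and still passed (adjusted p = 0.00972). Serpinf2, which inactivates plasmin, had 75.0, 107 and 92.1 CPM against 147 and 136 CPM (-0.63 ± 0.15, adjusted p = 0.0134), and Cpb2 had 99.4, 111 and 103 CPM against 137 and 123 CPM (-0.32 ± 0.07, adjusted p = 0.00787). An activator and 2 inhibitors of fibrinolysis were thus lower in male serum. Plaur rose, with 36.2, 39.2 and 34.3 CPM against 28.0 and 22.1 CPM (0.55 ± 0.09, adjusted p = 0.00139).

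F13a1 rose from 1.49 and 0.491 CPM in female serum to 3.62, 6.78 and 5.84 CPM in male serum (2.43 ± 0.36, adjusted p = 0.000549). The pair in female serum held 72 and 22 counts. Of 10 macrophage markers tested 1, Cd68, fell and 0 rose. The list summed to 85.5 to 104 CPM in male and 110 to 119 CPM in female serum, most of it Cd68, with 0 of 14 markers at 0 in either. Without a call, 8 of the 10 had a positive difference, as F13a1 did (list median 0.21). Among them were Vsig4 with means of 1.02 and 0.719 CPM and C1qa with 2.45 and 1.86 CPM. Clec4f, with means of 3.26 and 3.21 CPM, hardly differed, and Adgre1 was lower, with 0.498 and 0.551 CPM. Libraries did not overlap for 2 of the 10, against 34.9% of all genes. The part of these markers in the F13a1 difference was not tested. Serpina10 stood at 27.0, 34.5 and 30.3 CPM against 49.9 and 43.3 CPM (-0.61 ± 0.14, adjusted p = 0.0140). The kininogens fell slightly, Kng1 with 149 to 169 CPM against 192 and 201 CPM (-0.29 ± 0.08, adjusted p = 0.0295) and Kng2 with 73.3 to 84.9 CPM against 102 and 101 CPM (-0.35 ± 0.08, adjusted p = 0.0140).

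Calls of Plat, F13a1 and Plaur held under each of the 12 alternatives run for them. Without female serum replicate 2, 3 members passed, and without male serum replicate 1, 4 did. Cpb2, Serpinf2, Serpina10, Kng1 and Kng2 lost their calls without female serum replicate 2. The last 4 lost them also without male serum replicate 1, and both kininogens without female serum replicate 3 (adjusted p up to 0.152 over these 5 genes). F13a1 changed by 3.45 without female serum replicate 2 and by 1.86 without replicate 3, and Plaur by 0.72 and 0.38.

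**Figure D3:**
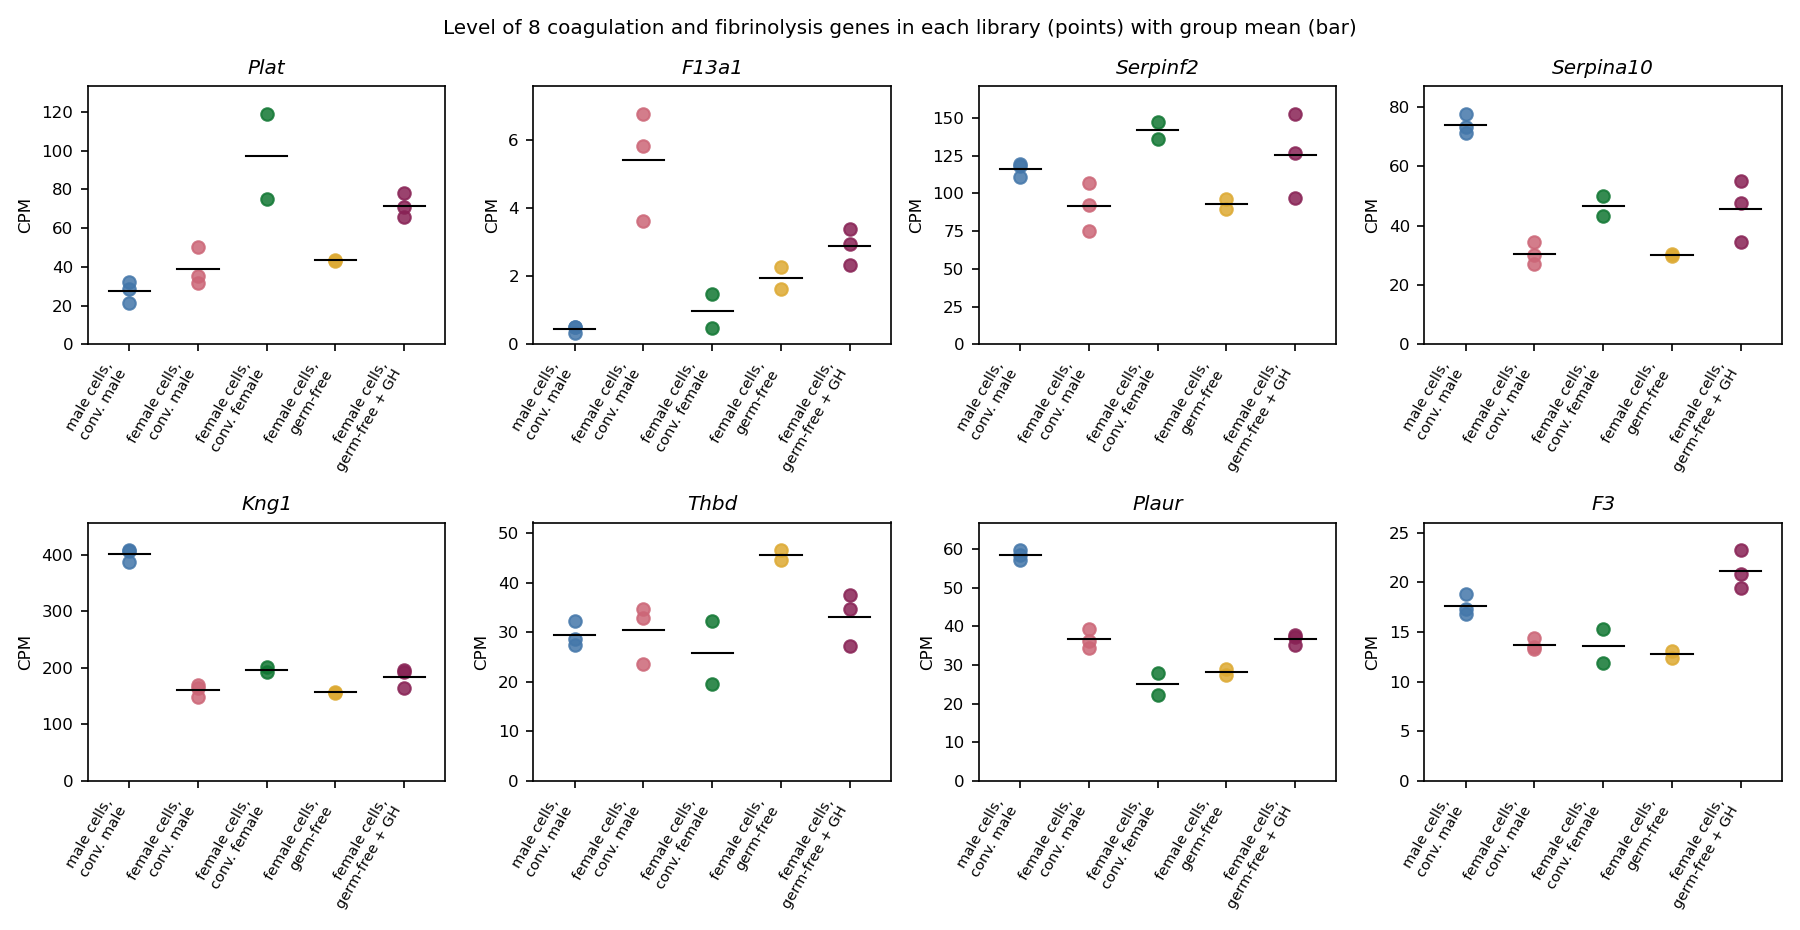
Level in CPM of 8 genes in each of the 13 libraries (points) with the group mean (bar). Plat is highest in conventional female serum (119 and 75.0 CPM), F13a1 in female cells with conventional male serum (3.62 to 6.78 CPM), Thbd in germ-free serum (44.6 and 46.5 CPM) and F3 with growth hormone (19.4 to 23.3 CPM).

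Germ-free female serum (n = 2) was set against conventional female serum (n = 2). These sera differed in the microbiota of the donor, which cannot be told apart from the serum lot. Of 34 members 1 rose and 7 fell, against 6.41% called over all genes, 2.86% as higher and 3.54% as lower. Libraries did not overlap for 20 members, against 49.9% of all genes. Members had a median log2 difference of -0.26 and all genes one of -0.0026. Without conventional replicate 2 the members' median was -0.09. This comparison has the same conventional female libraries as the one before, so a direction that both show is not independent. Plat, Serpinf2, Cpb2, Serpina10 and Kng1 were lower than in conventional female serum in both.

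Plat stood at 42.9 and 43.8 CPM in germ-free and 119 and 75.0 CPM in conventional serum (-1.16 ± 0.21, adjusted p = 0.00452). Serpina10 had 29.8 and 30.6 CPM against 49.9 and 43.3 CPM (-0.62 ± 0.16, adjusted p = 0.0269), and Serpinf2 89.5 and 96.3 CPM against 147 and 136 CPM (-0.61 ± 0.16, adjusted p = 0.0352). Germ-free libraries were close to each other and lay below both conventional ones. F13b, which had not passed with male serum, had 3.36 and 2.397 CPM against 5.70 and 4.29 CPM (-0.79 ± 0.20, adjusted p = 0.0283). F11 had 89.7 and 86.4 CPM against 135 and 99.8 CPM (-0.41 ± 0.11, adjusted p = 0.0319), Cpb2 103 and 110 CPM against 137 and 123 CPM (-0.29 ± 0.07, adjusted p = 0.0308), and Kng1 155 and 158 CPM against 192 and 201 CPM (-0.33 ± 0.09, adjusted p = 0.0334). Thbd was the only member that rose, to 44.6 and 46.5 CPM from 19.5 and 32.2 CPM (0.82 ± 0.20, adjusted p = 0.0228). The endothelial markers summed to 26.4 CPM in both germ-free libraries and 23.8 to 27.4 CPM in conventional serum, with 0 of 10 called. The part of endothelial cells in the Thbd difference was not tested.

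These calls rested on few libraries. Only 1 member passed in each of the fits without conventional replicate 2 (F13a1, which then rose), without germ-free replicate 2 (F13b) and without germ-free replicate 3 (Plat). Without conventional replicate 2, Plat changed by -0.80 (adjusted p = 0.0707) and Thbd by 0.50 (adjusted p = 0.265), while without conventional replicate 3 Thbd changed by 1.22. F11 changed by -0.18 without conventional replicate 2 (adjusted p = 0.434) and by -0.61 without replicate 3. Kng1 also lost its call without conventional replicate 3, and Serpinf2 with the replicate number as a block, which left 7 of the 8 calls. In the fit of only these groups 5 members passed.

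Set directly against each other in female cells, germ-free female serum (n = 2) and conventional male serum (n = 3) gave 0 calls among the 34 members with edgeR, against 0.448% of all genes, 0.184% as higher and 0.264% as lower. At an unadjusted p under 0.05 there were 6, against 1822 of all 17405 genes. DESeq2 called 3 members and 311 genes in all. The members' median was -0.09, or -0.04 without male serum replicate 3 and -0.05 without germ-free replicate 2, and that of all genes -0.0061. Plat, at 42.9 and 43.8 CPM against 31.8 to 50.1 CPM, overlapped (log2 0.15). Thbd (0.58, adjusted p = 0.200), Plaur (-0.38, adjusted p = 0.0723), Serpind1 (0.37, adjusted p = 0.0965) and F13a1 (-1.47, adjusted p = 0.0658) were among 13 members whose libraries did not overlap, against 24.3% of all genes. F13a1 had 1.63 and 2.29 CPM in germ-free against 3.62 to 6.78 CPM in male serum, and passed without male serum replicate 1. Cd68 was the only macrophage marker called here, as higher in germ-free serum (0.65), while 7 of the 10 tested had a negative difference, as F13a1 did (list median -0.25). Libraries did not overlap for 4 of the 10, against 24.3% of all genes. These were Cd68 and, as lower without a call, Vsig4 (-1.06), C1qb (-1.09) and C1qa (-0.68). Clec4f (-0.12) and Lyz2 (-0.29) overlapped, and Adgre1 (0.10) and Csf1r (0.07) had a positive difference. The signs differed in the comparisons left. Germ-free against conventional female serum had F13a1 at 0.96 and 6 of 10 macrophage markers negative (median -0.07). Growth hormone against vehicle had F13a1 at 0.57 and 7 of 10 negative (median -0.17). F13a1 passed in neither. The part of these markers was not tested.

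**Figure D4:**
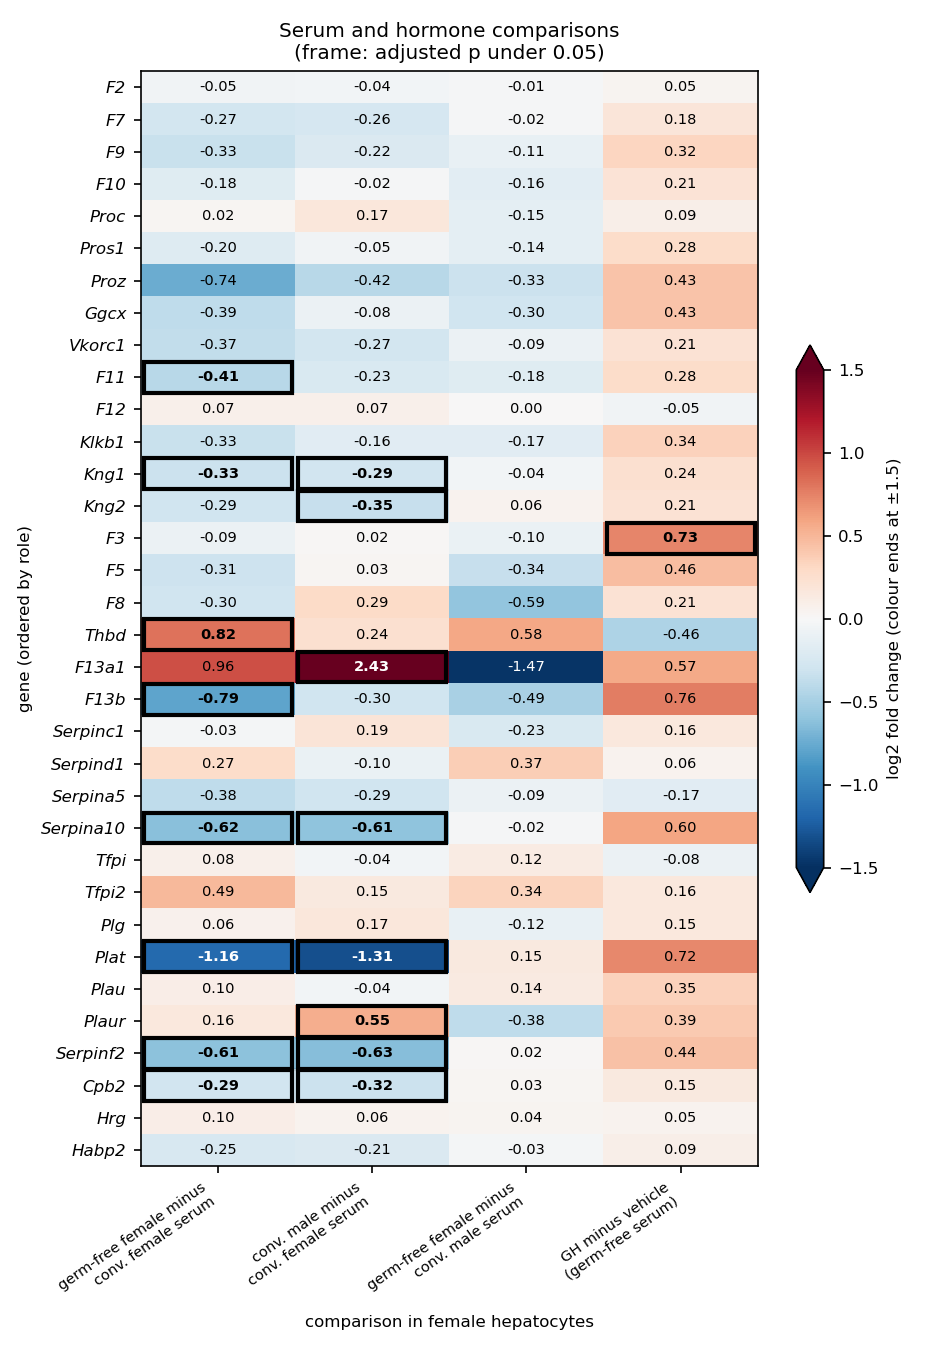
Log2 differences of the 34 members tested in the 4 comparisons within female cells (columns), ordered by role (rows), with a frame where the adjusted p was under 0.05. Framed falls of Plat, Serpinf2, Serpina10, Cpb2 and Kng1 appear in both columns that share the conventional female libraries, the third column has no frame, and F3 (0.73) has the only frame with growth hormone.

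Growth hormone was added for 2 h to cells in germ-free female serum (n = 3) and compared with vehicle in that serum (n = 2), to see the early response to the hormone. Only F3 of 34 members passed, as a rise, against 0.586% of all genes called, 0.511% as higher and 0.0747% as lower. F3 encodes tissue factor, the membrane protein that starts clotting when it meets factor VII. It stood at 20.9, 23.3 and 19.4 CPM with growth hormone and at 12.4 and 13.1 CPM with vehicle (0.73 ± 0.11, adjusted p = 0.00337), 1.66-fold higher. Its 3 hormone libraries were also above every other library of the study, which lay between 11.8 and 18.8 CPM. Without germ-free replicate 2 or 3 the difference was 0.69 or 0.77 and did not pass (adjusted p = 0.116 and 0.0523). The vehicle group then has a lone library, which is assumed to vary like the other groups.

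No other member passed, though 30 of 34 had a positive difference, with a median of 0.21 against -0.0011 for all genes. Without growth hormone replicate 1, the library highest in Xist, the members' median was 0.15, and it was 0.15 also without both libraries richest in Xist. The hepatocyte markers summed to 20160 to 24700 CPM with and 18650 to 19030 CPM without the hormone, and 8 of 8 had a positive difference. A negative one was seen for 9 of 10 endothelial (median -0.26), 8 of 9 stellate (-0.56) and 7 of 10 macrophage markers (-0.17). Other lists went the opposite way, with a positive difference for 4 of 5 cholangiocyte (median 0.44) and 2 of 3 platelet markers (0.25). None of these lists' genes passed, and their part was not tested. Plaur was next in the test, at 37.6, 37.3 and 35.2 CPM against 27.3 and 28.8 CPM (0.39, adjusted p = 0.0774). Serpina10 (0.60, adjusted p = 0.0984), F13b (0.76, adjusted p = 0.0999) and Plat (0.72, adjusted p = 0.136) came after it. Plat had 78.0, 66.0 and 70.9 CPM against 42.9 and 43.8 CPM. These 4 genes were among 19 members whose libraries did not overlap, against 32.0% of all genes. DESeq2 called F3, Plaur, Serpina10 and F13b, and 272 genes in all. The fit without growth hormone replicate 2 called 4 members and 190 genes in all.

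The windows of 250 bases before the start sites of F3 (chr3:121723287-121723536) and Plaur (chr7:24462233-24462482), both on the plus strand of GRCm38.p6, are shown since these genes came first in that test and, of the 27 members searched, were those that held the AP-1 motif. It lies at bases -135 to -129 in F3, as the reverse complement of TGACTCA, and at -69 to -63 in Plaur, and is in capitals.
F3: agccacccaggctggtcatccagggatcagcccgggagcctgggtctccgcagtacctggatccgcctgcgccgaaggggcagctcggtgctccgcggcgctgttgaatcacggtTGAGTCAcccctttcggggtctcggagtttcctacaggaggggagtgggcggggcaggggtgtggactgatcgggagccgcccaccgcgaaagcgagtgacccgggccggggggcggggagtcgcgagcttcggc
Plaur: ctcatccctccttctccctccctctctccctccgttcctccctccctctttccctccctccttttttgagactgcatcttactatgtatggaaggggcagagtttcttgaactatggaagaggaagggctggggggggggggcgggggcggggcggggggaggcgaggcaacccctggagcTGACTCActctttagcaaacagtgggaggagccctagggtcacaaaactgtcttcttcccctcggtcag
No binding was measured here.

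Over the 5 comparisons 31 of the 34 members tested passed at least once and 3 did not, namely F5, F7 and F8. Most of that count came from male against female cells, where 29 members and 36.7% of all genes passed. How many of all genes passed at least once was not counted. F5 ranged from 24.2 to 43.7 CPM over the 13 libraries, F7 from 5.70 to 8.55 CPM and F8 from 0.613 to 1.70 CPM. F5 was highest in growth hormone replicate 1 and next in conventional female replicate 2 (38.8 CPM), the libraries richest in Xist. It passed as higher in male than in female conventional serum without that pair, and as lower in germ-free than in conventional female serum without conventional replicate 3. F8 rested on 22 to 67 counts per library, which limits what could be detected.

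Other genes of the pathway were followed by a list of 21, of which 18 were tested. In male against female cells 11 rose and 1 fell, against 17.6% and 19.0% of all genes. F2r, the main thrombin receptor, rose from 7.68 ± 1.22 to 54.5 ± 2.88 CPM (SD, n = 3 each, log2 2.83), Pzp, a broad protease inhibitor, by 1.91, Serping1, the inhibitor of the contact proteases, by 1.42, and Apoh, beta-2-glycoprotein I, by 1.44. In germ-free against conventional female serum 2 fell, against 3.54% of all genes. These were Mcfd2 (-0.35), part of the transport receptor for factors V and VIII, and S100a10 (-0.42), part of a plasminogen receptor. Each lost its call without conventional replicate 2 and without either germ-free replicate. Thbs1, thrombospondin, was the only call of the list with male against female serum (0.51), lost without male serum replicate 1 or 3 or female serum replicate 3. Serpinb2, an inhibitor of plasminogen activators, was the only call of the list in germ-free against male serum (1.60, adjusted p = 0.0335), and lost it without any 1 of the 5 libraries.

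The fibrinogen chains Fga, Fgb and Fgg, on which thrombin acts, were each lower in male serum (-2.05, -1.54 and -1.43) and in germ-free serum (-1.44, -0.89 and -1.04) than in conventional female serum, and each higher in male than in female cells (1.70, 1.58 and 2.72). With growth hormone they did not pass, and Fgb lost its call with germ-free serum without either germ-free replicate.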

How the data were processed

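RNA was extracted from hepatocyte cultures, and 250 ng of total RNA went into stranded, ribosome-depleted libraries with 12 PCR cycles, per the labels' protocols. The authors deposited raw exon counts per gene, whole numbers without scaling. STAR 2.4.0i and mm10 are named in the submitters' processing notes, and the sources used here name no counting program, annotation or strand setting. The overlapping genes Trf and Gm20425 held 4826626 and 4844818 counts. Of 15 columns 2 shared a name and were not used.

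Counts of the other 13 libraries were scaled by TMM, filtered with filterByExpr (minimum count 10, 17405 genes left) and fitted in 1 model of the 5 groups without covariates (edgeR 4.0.16, R 4.3.3, 8 residual degrees of freedom). The contrasts were tested with the two-sided quasi-likelihood F test with Benjamini-Hochberg adjustment over all genes tested and a threshold of 0.05. The standard error is the log2 difference divided by the square root of F. CPM use library sizes scaled by TMM, and CPM per kb the merged exons of GENCODE M21's basic set (mm10). Replicates of a group differed by a chi-square of 5.46 to 53.36 per degree of freedom, and none were treated as duplicates. The method was tested on simulated data. Alternatives were RLE factors, library size only, DESeq2 1.42.0, no low-count filter, only the groups compared, a replicate block, each library left out, and both libraries richest in Xist left out.

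Members and lists were chosen with earlier results of these data known. Members that passed in at least 1 comparison are given with their values, with statistics for up to 8 per comparison by adjusted p, and up to 4 other pathway genes per comparison. Plgrkt and Adgre1 were matched by gene identifier. One item of the pathway list is not reported here and was left out of its counts.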

Additional observations from a re-analysis of the deposited data

How the results depend on the processing

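The 46 calls of members kept their direction under all alternatives run (573 values). In 497 of these they also kept their side of the threshold, and in 76 they did not. Leaving out 1 library at a time gave 1 to 8 called members and 274 to 1225 called genes for germ-free against conventional female serum. The ranges were 3 to 8 members and 663 to 1652 genes for male against female serum, 0 to 1 and 2 to 160 for germ-free against male serum, 0 to 4 and 33 to 190 for growth hormone, and 25 to 29 and 5248 to 6090 for male against female cells. Without both libraries richest in Xist, germ-free against conventional female serum gave 1 member and 367 genes, male against female serum 825 genes (6 members, 4 as higher and 2 as lower), and germ-free against male serum 3 members and 286 genes. In fits of only the groups compared the counts were 5 members and 611 genes, 5 members and 468 genes, and for growth hormone 3 members and 156 genes. Without the low-count filter they were 14 members and 1731 genes for germ-free against conventional female serum, 5 and 622 for germ-free against male serum, and 11 and 796 for growth hormone. DESeq2 gave 3 members and 311 genes for germ-free against male serum and 4 members and 272 genes for growth hormone. The cause of these shifts was not tested. Where a group keeps 1 library, its spread is taken from the other groups.

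With the replicate number as a block, 7 members passed for germ-free against conventional female serum, 8 for male against female serum, 0 for germ-free against male serum, 1 for growth hormone and 28 for male against female cells. All genes called numbered 31 for germ-free against male serum and 62 for growth hormone. Same-numbered libraries correlated at -0.016 to 0.126 in their deviations from the group mean across genes. In a group of 2 libraries these deviations mirror each other, so the check cannot decide whether libraries were paired. In the cell comparison replicates 2 and 3, but not 1, correlated best with their own number, and so did both replicates of the growth hormone comparison. Depth limits Vwf, F8, Serpina5, Plau and F13a1, which rest on few counts.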
